A study of Mus musculus with 6 samples.

Results

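The genes described here are Trp53, which encodes the transcription factor p53, and 9 of its direct targets: Mdm2, Cdkn1a, Ccng1, Trp53inp1, Bax, Bbc3, Pmaip1, Sesn2 and Zmat3. They were chosen by name, with earlier results of these data known. All 10 were found among the 48440 genes of the deposited count table and among the 14664 genes that passed the filter on low counts. Their RNA was measured in 3 Tet1 knockout and 3 non-targeted clones of a mouse induced pluripotent stem cell (iPSC) line. Tet1 encodes an enzyme that oxidises 5-methylcytosine. The comparison asks whether clones labelled as Tet1 knockout differ in gene expression from clones of the same line labelled as non-targeted.

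The knockout clones were clones 14, 30 and 33 (replicates 1, 2 and 3) and carried the label Tet1 Cas9 mut/mut. The non-targeted clones were clones 49, 51 and 52 (replicates 1, 2 and 3). What both groups shared was a male line of genotype wt/wt;GFP/wt, a strain label that names B6- Tet1tm1Kohx and the B6;CBA-Tg(Pou5f1-EGFP)2Mnn/J reporter, and 14 passages in KSR medium before editing. The labels give both groups the same text on transfection with Cas9 ribonucleoprotein, a Tet1 guide RNA and a donor oligonucleotide, on 12 h with a homology-directed repair enhancer, and on 4 further passages and growth on feeder fibroblasts. They do not say how the non-targeted clones differed in treatment. All clones derive from 1 parental line, so the p-values measure the spread between its clones.

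In unstressed cells p53 is kept low by Mdm2, a ubiquitin ligase that is itself a p53 target and so closes a feedback loop. DNA damage and other stresses stabilise p53, mostly without a change in its mRNA, and it then binds paired copies of a 10-base half-site and activates genes of cell-cycle arrest, apoptosis and metabolism. Pluripotent mouse cells contain abundant Trp53 mRNA, and p53 is known there for limiting reprogramming and for the response to double-strand breaks.

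Promoter windows from RefSeq (GRCm38.p6, 250 bases before to 50 after an annotated start site) were matched for 7 of the 10 genes (all but Pmaip1, Trp53inp1 and Zmat3) and are shown to place the p53 half-site, which reads the same on both strands. Of these 7 genes, 5 had at least 1 half-site in a window, against 9.55% of the 27025 genes with a window and 8 of 25 genes in a list of other p53 targets. In the sequences below the capitals mark half-sites and each is written 5′ to 3′ on the strand of its gene:
Cdkn1a (chr17:29090881-29090962, + strand): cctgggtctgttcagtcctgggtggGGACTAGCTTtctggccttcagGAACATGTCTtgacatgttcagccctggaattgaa
Mdm2 (chr10:117710910-117710969, - strand): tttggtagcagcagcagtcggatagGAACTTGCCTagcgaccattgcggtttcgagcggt
Ccng1 (chr11:40755437-40755496, - strand): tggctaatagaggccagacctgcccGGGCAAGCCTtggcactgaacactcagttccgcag
Bax (chr7:45467065-45467124, - strand): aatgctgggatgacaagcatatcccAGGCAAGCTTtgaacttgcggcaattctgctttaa
Trp53 (chr11:69580259-69580318, + strand): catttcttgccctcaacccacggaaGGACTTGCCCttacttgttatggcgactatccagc

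The Cdkn1a window was the only member window with 2 half-sites at a spacing of at most 13 bases, an arrangement found for 20 of the 27025 genes. Only exact matches were marked, so a partner half-site with a mismatch would be missed, and which half-sites form a pair was not tested. Its second half-site has a CATG core, as had a half-site of 2.24% of all genes and of none of the other 6 member genes. No half-site was found in the windows of Bbc3 and Sesn2, which says only that those letters are not in these windows, since many p53 sites lie in introns or farther upstream. A match is a description of the letters and was not tested as a site.

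**Figure D1:**
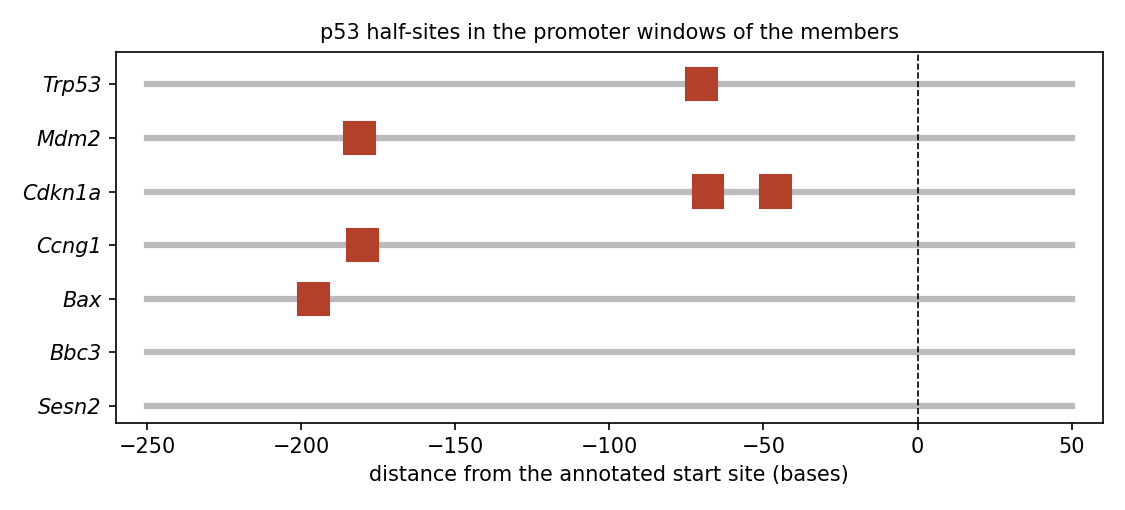
Positions of p53 half-sites (red boxes, 10 bases wide) in the promoter windows (grey lines) of the 7 genes with a window, against the distance in bases from the annotated start site (dashed line). Cdkn1a holds 2 half-sites, at -73 and -51, in 1 of its 2 windows, and Bbc3 holds none in any of its 3.

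The libraries held 11937909 to 13672879 counts in knockout cells and 12564763 to 16189554 counts in non-targeted cells. Tet1 had 365, 231 and 288 CPM (read counts scaled by library size and TMM factors) in knockout replicates 1 to 3, against 1158, 966 and 1034 CPM in non-targeted cells (log2 fold change -1.84 ± 0.16, SE; edgeR adjusted p = 0.0703; DESeq2 adjusted p = 9.43e-20). Pluripotency markers were present in all 6 libraries: 11 of 12 were detected in each, with summed levels of 3679 to 5495 CPM in knockout cells and 5287 to 5853 CPM in non-targeted cells, while Sox2, which lies within Sox2ot on the same strand, was listed at 0. Their levels were not alike: 10 of the 11 had a log2 fold change below 0 and 1 above (median -0.25), none called by edgeR or DESeq2. Klf4 had 622, 221 and 122 CPM in knockout replicates 1 to 3, against 593, 438 and 531 CPM in non-targeted cells. Nanog had 471, 284 and 112 CPM, against 564, 473 and 462 CPM. Of 29 tested fibroblast markers, listed because of the feeder cells, 27 had a log2 fold change above 0 and 2 below (median 1.20). In 20 the lowest knockout value lay above the highest non-targeted value, against 14.8% of all genes. DESeq2 called 14 as higher, against 5.50% of all genes, and edgeR called 0. Set against the mean of non-targeted cells, the median of the 29 markers stood at 0.61, 0.70 and 1.81 on the log2 scale in knockout replicates 1 to 3. In non-targeted cells it stood at -0.34, 0.24 and 0.12. Their summed level was 2180 to 2905 CPM in knockout cells and 2187 to 2546 CPM in non-targeted cells. The fibronectin gene Fn1 gave 697 to 1419 CPM of this sum in the knockout and 1114 to 1489 CPM in non-targeted cells. Fn1 and Sparc were the 2 markers below 0 (log2 fold change -0.42 and -0.17), so the sum does not follow most of the markers. The fibroblast activation gene Fap, too low to be tested, had 1, 3 and 8 counts in knockout replicates 1 to 3 and 0, 1 and 0 in non-targeted replicates 1 to 3. Col1a1 had 514, 448 and 1705 counts in the knockout and 233, 494 and 380 in non-targeted cells.

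Across all genes edgeR's quasi-likelihood test, the main test, called 0% of the 14664 genes at an adjusted p of 0.05, with 24.8% at an unadjusted p under 0.05 (14.0% higher and 10.8% lower in the knockout). DESeq2 called 8.65% of 14235 genes, 5.50% as higher and 3.15% as lower, and limma voom called 0.00682%. Of the 10 p53 genes edgeR and limma voom called 0, and 4 had an unadjusted edgeR p under 0.05, all higher in the knockout: Pmaip1, Zmat3, Cdkn1a and Mdm2. DESeq2 called 1 of the 10, Pmaip1. In Pmaip1, Zmat3 and Mdm2 the lowest knockout clone lay above the highest non-targeted clone, as it did for 14.8% of all genes. The median log2 fold change of the 10 genes was 0.03, with 6 above and 4 below 0, against 0.00 over all genes tested. This median was 0.15 without knockout replicate 1, and it turned to -0.05 without knockout replicate 3 and to -0.02 without non-targeted replicate 1. Fold changes ran from -0.29 (Trp53inp1) to 0.78 (Cdkn1a) on the log2 scale, and the Trp53 levels overlapped between the groups.

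**Figure D2:**
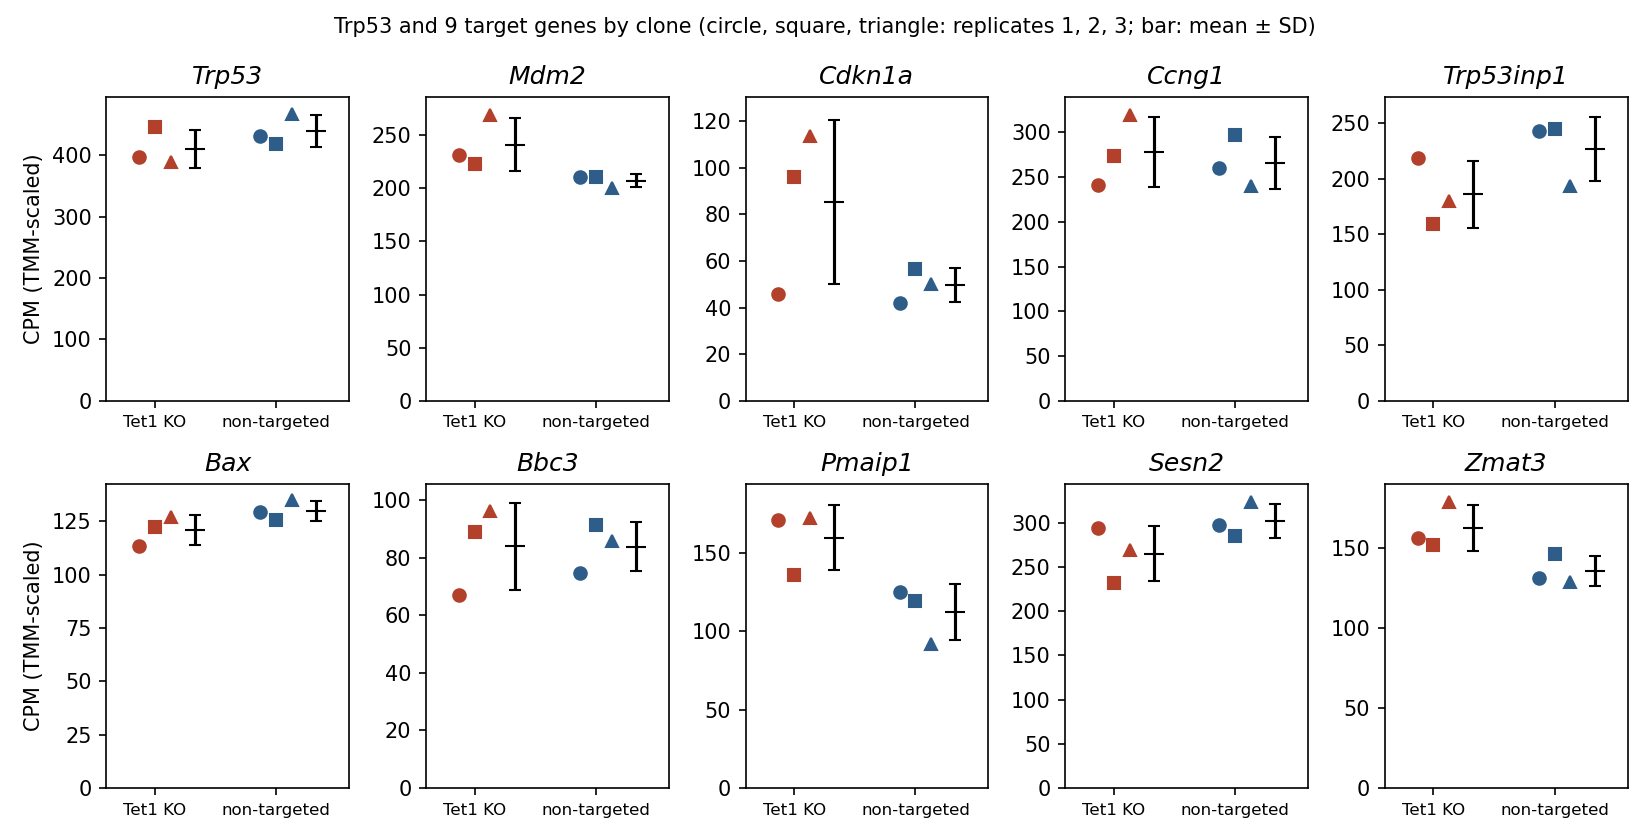
Level in CPM (y axis, from 0) of each gene in the 3 Tet1 knockout clones (red, left) and the 3 non-targeted clones (blue, right); circles, squares and triangles are replicates 1, 2 and 3, and the bar is the mean ± SD. The groups do not overlap for Mdm2, Pmaip1 and Zmat3, and Cdkn1a is high in knockout replicates 2 and 3 only.

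Trp53 (ENSMUSG00000059552.13, GRCm38 chromosome 11, from 69580359 to 69591873) was measured at 397, 445 and 388 CPM in knockout replicates 1 to 3, against 432, 418 and 467 CPM in non-targeted cells. Knockout replicate 2 stood between the non-targeted values and the other two below them. The log2 fold change was -0.10 ± 0.08 (SE), with a 95% interval of -0.29 to 0.09 (edgeR adjusted p = 0.467; DESeq2 adjusted p = 0.590). The 40 tested genes nearest to Trp53 on the chromosome had a median of -0.11, -0.06 and -0.27 on the log2 scale in the knockout clones, relative to the non-targeted mean, where Trp53 itself had -0.14, 0.02 and -0.18.

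Mdm2, the feedback ligase (ENSMUSG00000020184.14, chromosome 10, 117688888 to 117710758), had 231, 223 and 269 CPM in knockout cells and 211, 210 and 200 CPM in non-targeted cells. Every knockout clone was higher, replicate 3 most, and the non-targeted clones lay close together with a coefficient of variation of 2.99%, against 10.2% in the knockout. The fold change was 1.16 (log2 0.22 ± 0.09, 95% interval 0.01 to 0.42), which edgeR did not call (unadjusted p = 0.0396, adjusted p = 0.182), nor did DESeq2 (adjusted p = 0.252). Taken per Trp53 count in the same library, a measure that no scaling can move, Mdm2 had 0.581, 0.501 and 0.694 counts in knockout cells and 0.489, 0.503 and 0.428 counts in non-targeted cells. By this ratio knockout replicate 2 lay below non-targeted replicate 2, and an exact two-sided permutation test gave p = 0.2 (adjusted over 3 ratios 0.2), where 0.1 is the smallest this design allows.

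Ccng1 encodes cyclin G1, a target that brings the phosphatase PP2A to Mdm2 (ENSMUSG00000020326.7, chromosome 11, 40748552 to 40755311). It had 241, 274 and 320 CPM in knockout cells and 260, 297 and 240 CPM in non-targeted cells, so the groups overlapped (log2 fold change 0.07 ± 0.12, 95% interval -0.22 to 0.36; edgeR adjusted p = 0.760). The direction was lower, -0.04, without knockout replicate 3, and -0.0050 without non-targeted replicate 3.

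Trp53inp1, a nuclear protein that promotes p53 phosphorylation and autophagy (ENSMUSG00000028211.11, chromosome 4, 11156431 to 11174379), had 219, 159 and 180 CPM in knockout cells and 243, 245 and 194 CPM in non-targeted cells. Knockout replicates 2 and 3 lay below all non-targeted clones, and replicate 1 lay between them. Its log2 fold change was -0.29 ± 0.14 (95% interval -0.62 to 0.04; edgeR adjusted p = 0.246). Without knockout replicate 1 it was -0.42 and passed in edgeR (adjusted p = 0.0259), in a fit where edgeR called 29.1% of all genes tested.

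The arrest gene of the group, Cdkn1a, encodes the cyclin-dependent kinase inhibitor p21 (ENSMUSG00000023067.13, chromosome 17, 29090979 to 29100722). It had 45.8, 96.1 and 114 CPM in knockout replicates 1 to 3, against 42.0, 56.4 and 50.3 CPM in non-targeted cells. Replicates 2 and 3 lay far above the non-targeted clones and replicate 1 lay inside their range, so the knockout clones varied by 41.3% of their mean (coefficient of variation), the widest spread of the 10 genes, against 14.6% in the non-targeted clones. The fold change of 1.72 (log2 0.78 ± 0.31, 95% interval 0.07 to 1.49) was the largest of the 10, and neither edgeR (unadjusted p = 0.0357, adjusted p = 0.175) nor DESeq2 (adjusted p = 0.0782) called it. Without knockout replicate 1 the log2 fold change was 1.08 (edgeR adjusted p = 0.00132), in the same fit with 29.1% of all genes called (4404 of 15140). The split of the clones was not particular to Cdkn1a. Over all genes tested, log2 CPM of knockout replicate 1 correlated at 0.984, 0.987 and 0.984 with non-targeted replicates 1 to 3. With knockout replicates 2 and 3 the correlations were 0.973 and 0.958.

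Beside these Cdkn1a values, the pluripotency markers had medians of -0.08, -0.34 and -0.51 on the log2 scale in knockout replicates 1 to 3, relative to the non-targeted mean. The fibroblast medians were 0.61, 0.70 and 1.81. Those of 12 tested primitive endoderm markers were 0.56, 0.61 and 1.15, against 0.09, -0.04 and -0.11 in non-targeted replicates 1 to 3. Of these 12 markers, 9 had a log2 fold change above 0 and 3 below, and Sparc is in the fibroblast list too. DESeq2 called 5 of them as higher, against 5.50% of all genes. In bulk RNA more cells of another type and more RNA per cell cannot be told apart, and the part of these cells in the Cdkn1a values was not tested. The 3 genes whose log2 CPM followed Cdkn1a most closely over the 6 libraries, among 9990 genes of at least 5 CPM, were Rcn3, Rab11fip1 and Foxi3 (Pearson r of 0.999, 0.999 and 0.998). For Trp53 they were Rab5c, Tyw1 and Lmnb1 (0.999, 0.994 and 0.985), and with 6 libraries and this many genes such values describe likeness only.

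**Figure D3:**
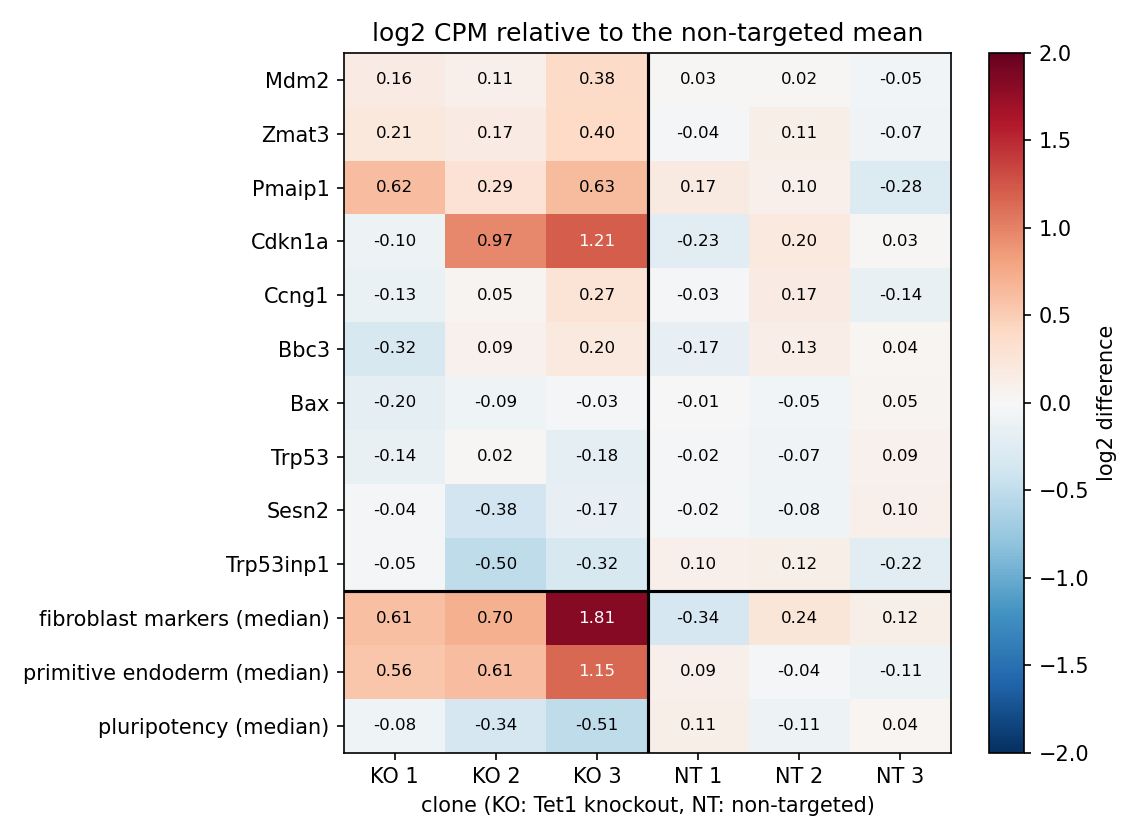
Log2 CPM of the 10 genes in each clone relative to the non-targeted mean (colour and printed value), with the medians of 3 marker lists in the lower rows; the knockout clones are left of the line and the non-targeted clones right of it. Cdkn1a stands at 0.97 and 1.21 in knockout replicates 2 and 3 and at -0.10 in replicate 1, while Mdm2, Zmat3 and Pmaip1 are above 0 in all 3.

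Of the 3 apoptosis genes among the 10, Pmaip1, Bbc3 and Bax, DESeq2 called Pmaip1. Pmaip1 encodes Noxa, a BH3-only protein that neutralises Mcl1 (ENSMUSG00000024521.7, chromosome 18, 66458604 to 66465550). It had 171, 136 and 172 CPM in knockout cells and 125, 119 and 91.6 CPM in non-targeted cells. Every knockout clone was higher, and among them replicate 2 was lowest, at 136 CPM. It rose in DESeq2 (log2 fold change 0.51; adjusted p = 0.0420). In edgeR the fold change was 1.43 (log2 0.51 ± 0.15, 95% interval 0.17 to 0.85; unadjusted p = 0.00874, adjusted p = 0.124). The DESeq2 call held without knockout replicate 1 or 2 (adjusted p = 0.0229 and 0.0379), fits in which DESeq2 called 27.4% and 2.11% of all genes. It was lost without knockout replicate 3 (0.220) and without non-targeted replicate 1, 2 or 3 (0.104, 0.0988 and 0.285). In these fits DESeq2 called 1.96%, 1.44%, 5.45% and 0.977% of all genes, against 8.65% with all 6 libraries.

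Bbc3, which encodes the BH3-only protein Puma (ENSMUSG00000002083.13, chromosome 7, 16308393 to 16318205), had 67.1, 88.9 and 96.2 CPM in knockout cells and 74.6, 91.3 and 85.8 CPM in non-targeted cells. The knockout clones lay on both sides of the non-targeted range, and the means were 84.0 ± 15.1 and 83.9 ± 8.55 CPM (SD, n = 3 each). The log2 fold change was 0.0019 ± 0.15 (95% interval -0.34 to 0.34; edgeR adjusted p = 0.995), a value whose sign turned in several alternatives. Counted per Bbc3 read, Pmaip1 had 2.55, 1.53 and 1.79 counts in knockout cells and 1.68, 1.31 and 1.07 counts in non-targeted cells, with overlap at knockout replicate 2 (exact two-sided permutation p = 0.2, adjusted 0.2).

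Bax, the pore-forming effector of mitochondrial apoptosis (ENSMUSG00000003873.11, chromosome 7, 45461697 to 45466898), had 113, 122 and 127 CPM in knockout cells and 129, 126 and 135 CPM in non-targeted cells. Only knockout replicate 3 overlapped with the non-targeted clones. This gave a log2 fold change of -0.10 ± 0.08 (95% interval -0.28 to 0.07; edgeR adjusted p = 0.415). It shares 915 bases on the same strand with RP23-218K15.5, a gene of 5 to 15 counts per library, and reads there were not counted.

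Sesn2, a leucine sensor that restrains mTORC1 (ENSMUSG00000028893.8, chromosome 4, 132492032 to 132510501), had 294, 232 and 269 CPM in knockout cells and 298, 285 and 324 CPM in non-targeted cells. Knockout replicates 2 and 3 were below all non-targeted clones and replicate 1 was inside their range. The log2 fold change was -0.19 ± 0.10 (95% interval -0.43 to 0.05; edgeR adjusted p = 0.283). Reads in the 6089 bases that Gm12981 covers on the same strand were left out of its count. Without knockout replicate 1 the log2 fold change was -0.27 (edgeR adjusted p = 0.0504), and -0.28 in DESeq2, which called it there (adjusted p = 0.0376) together with 27.4% of all genes.

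Zmat3, a zinc-finger protein that binds RNA and regulates splicing (ENSMUSG00000027663.12, chromosome 3, 32334792 to 32366014), had 156, 152 and 179 CPM in knockout cells and 131, 146 and 129 CPM in non-targeted cells. Every knockout clone was higher, by a small margin between knockout replicate 2 and non-targeted replicate 2. The fold change was 1.20 (log2 0.26 ± 0.09, 95% interval 0.04 to 0.47), and neither test called it (edgeR unadjusted p = 0.0246, adjusted p = 0.157; DESeq2 adjusted p = 0.174).

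**Figure D4:**
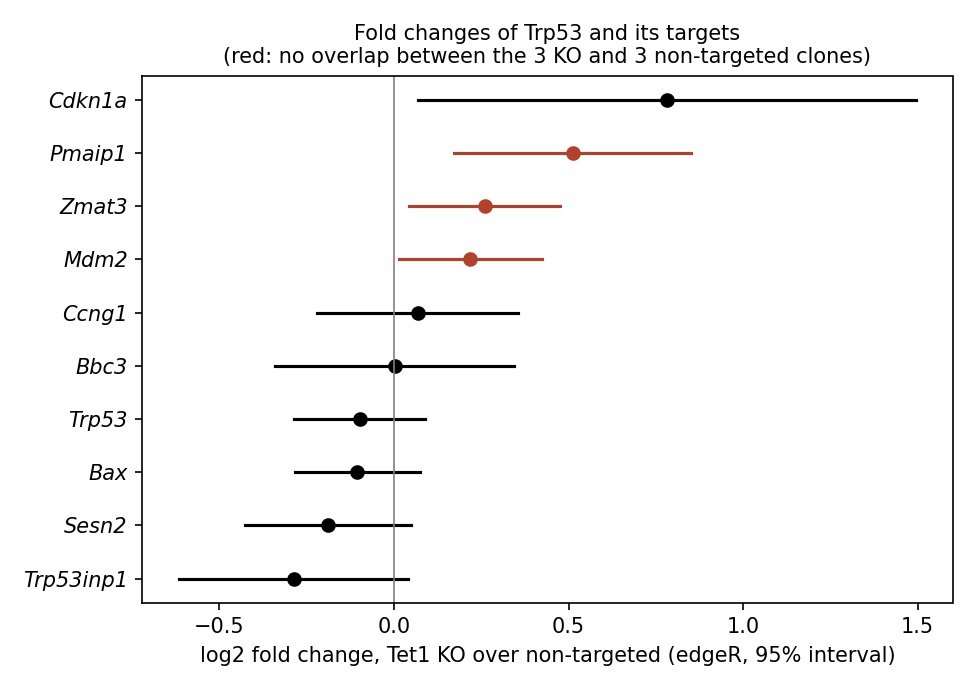
Log2 fold change of each gene, Tet1 knockout over non-targeted, from edgeR (points) with its 95% interval (lines), ordered by size. The intervals of Cdkn1a, Pmaip1, Zmat3 and Mdm2 lie above 0 before adjustment, and red marks the 3 genes with no overlap between the groups.

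The 10 genes did not move as a block. Averaged over them, log2 CPM against the mean of non-targeted cells came to 0.00, 0.07 and 0.24 in knockout replicates 1 to 3, against -0.02, 0.06 and -0.04 in non-targeted cells. Without Cdkn1a the averages were 0.01, -0.03 and 0.13 in the knockout and 0.00, 0.05 and -0.05 in the non-targeted clones, so that only knockout replicate 3 stood above them. In 9 of the 10 genes the log2 values spread more among the knockout than among the non-targeted clones, as they did for 70.1% of all genes. In knockout replicate 2 Cdkn1a was the highest of the 10, at 0.97, and Trp53inp1 the lowest, at -0.50. In knockout replicate 1 the highest was Pmaip1, at 0.62, and the lowest was Bbc3, at -0.32.

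None of the 10 genes lies in a stretch of the chromosome shifted by more than 0.35, a cutoff set after seeing the data. The median of the 40 neighbouring genes was within 0.35 of 0 on the log2 scale in every knockout clone for each of them. The largest departure was the -0.27 beside Trp53 in replicate 3. The neighbours of Trp53 were below 0 in all 3 knockout clones, with a median log2 fold change of -0.16, where Trp53 had -0.10. Smaller regional shifts were not tested.

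A wider list of 30 other p53 targets had a median log2 fold change of 0.01, with 16 above and 14 below 0. In edgeR 0 passed after adjustment. At an unadjusted edgeR p under 0.05, 6 were higher and 2 lower, against 14.0% and 10.8% of all genes. DESeq2 called 4 as higher and 1 as lower, against 5.50% and 3.15% of all genes. Epha2, a receptor tyrosine kinase for ephrin-A ligands, had 306, 311 and 319 CPM in knockout cells and 215, 204 and 220 CPM in non-targeted cells. It rose in DESeq2 (log2 fold change 0.54; adjusted p = 3.15e-06), with little spread in either group, and its edgeR fold change was 1.46 (log2 0.55 ± 0.06; adjusted p = 0.0916).

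Ptpn14, a phosphatase that restrains YAP, had 121, 214 and 256 CPM in knockout cells and 84.0, 119 and 101 CPM in non-targeted cells (log2 fold change 0.96 ± 0.26; edgeR adjusted p = 0.122; DESeq2 adjusted p = 0.0105). The nuclease gene Aen had 40.3, 57.0 and 64.6 CPM in knockout cells and 29.6, 37.4 and 34.1 CPM in non-targeted cells (0.68 ± 0.18; DESeq2 adjusted p = 0.0230; edgeR adjusted p = 0.122). Like Cdkn1a, both were higher in knockout replicates 2 and 3 than in replicate 1, but here replicate 1 also lay above the non-targeted range. Ddit4, an inhibitor of mTORC1, had 60.1, 71.9 and 86.1 CPM in knockout cells and 50.4, 51.2 and 49.3 CPM in non-targeted cells (0.53 ± 0.13; DESeq2 adjusted p = 0.0245; edgeR adjusted p = 0.114).

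Tigar, a fructose bisphosphatase that slows glycolysis, was the lower call, with 133, 67.7 and 48.1 CPM in knockout cells and 151, 149 and 162 CPM in non-targeted cells (-0.89 ± 0.33; DESeq2 adjusted p = 0.0486; edgeR adjusted p = 0.162). It lies on chromosome 6, where its 40 neighbours had medians of -0.05, -0.89 and -0.96 on the log2 scale in knockout replicates 1 to 3. The lower Tigar level thus stood in the same clones as lower neighbours, and how far the gene follows its region was not tested.

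Of 19 tested regulators of p53, 8 were above and 11 below 0 (median -0.02), and neither edgeR nor DESeq2 called any (0 each). In edgeR 3 had an unadjusted p under 0.05, all as lower, against 10.8% of all genes. Each had all knockout clones below all non-targeted ones, as 14.7% of all genes had. Mdm4, the partner of Mdm2 that blocks p53 activation, had 166, 135 and 121 CPM in knockout cells and 186, 188 and 175 CPM in non-targeted cells (log2 fold change -0.38 ± 0.12; edgeR adjusted p = 0.134; DESeq2 adjusted p = 0.0707). Mdm2 was thus higher and its relative Mdm4 lower in all 3 knockout clones, neither past an adjusted threshold. Usp7, a deubiquitinase of both Mdm2 and p53, and the ubiquitin ligase Rchy1 had -0.23 ± 0.09 and -0.23 ± 0.09 (edgeR adjusted p = 0.170 and 0.175).

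Among 18 tested genes of the BCL-2 family and its caspases, 12 were above and 6 below 0 (median 0.06). After adjustment edgeR called 0. At an unadjusted edgeR p under 0.05, 2 were higher and 1 lower, where 14.0% and 10.8% of all genes were. DESeq2 called only Bid, as lower, as it did 3.15% of all genes. Bid, a BH3-only protein cut by caspase-8, had 116, 41.6 and 47.1 CPM in knockout cells and 127, 133 and 144 CPM in non-targeted cells (-0.98 ± 0.36; DESeq2 adjusted p = 0.0450; edgeR adjusted p = 0.162). Its 40 neighbours on chromosome 6 had medians of -0.03, -1.03 and -0.92 in the knockout clones. Casp8 and Bcl2, at most 5.54 and 4.53 CPM in any clone, had log2 fold changes of 1.29 ± 0.39 and 1.73 ± 0.69 (edgeR adjusted p = 0.128 and 0.180). Both were highest in knockout replicate 3, where the fibroblast median was also highest. In knockout replicate 2 they had 3.97 and 2.32 CPM, also above every non-targeted clone. In knockout replicate 1 Casp8, at 2.07 CPM, was above the highest non-targeted clone (1.87 CPM), while Bcl2, at 0.69 CPM, lay inside the non-targeted range. Whether fibroblast RNA has a part in these values was not tested.

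Of 20 cyclins, cyclin-dependent kinases, pocket proteins and inhibitors that act with or beside p21, 9 were above and 11 below 0 (median -0.03). After adjustment edgeR called 0. At an unadjusted edgeR p under 0.05, 3 were higher and 4 lower, beside 14.0% and 10.8% of all genes. DESeq2 called 2 as lower, beside 3.15% of all genes. Ccne1, the cyclin E1 partner of Cdk2, had 310, 316 and 291 CPM in knockout cells and 350, 374 and 394 CPM in non-targeted cells (-0.29 ± 0.07; DESeq2 adjusted p = 0.0434; edgeR adjusted p = 0.115). Cdk2, a kinase that p21 inhibits, had 141, 124 and 131 CPM in knockout cells and 168, 152 and 165 CPM in non-targeted cells (-0.29 ± 0.08; edgeR adjusted p = 0.123; DESeq2 adjusted p = 0.0667). All 3 knockout clones were lower than the non-targeted clones for either gene. Any link of these levels to Cdkn1a was not tested. Cdkn1b, the p21 relative p27, had 48.99, 19.8 and 17.6 CPM in knockout cells and 59.5, 55.6 and 59.4 CPM in non-targeted cells (-1.01 ± 0.36; DESeq2 adjusted p = 0.0418; edgeR adjusted p = 0.158). Its chromosome 6 neighbours had medians of -0.04, -1.04 and -1.06 in the knockout clones.

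**Figure D5:**
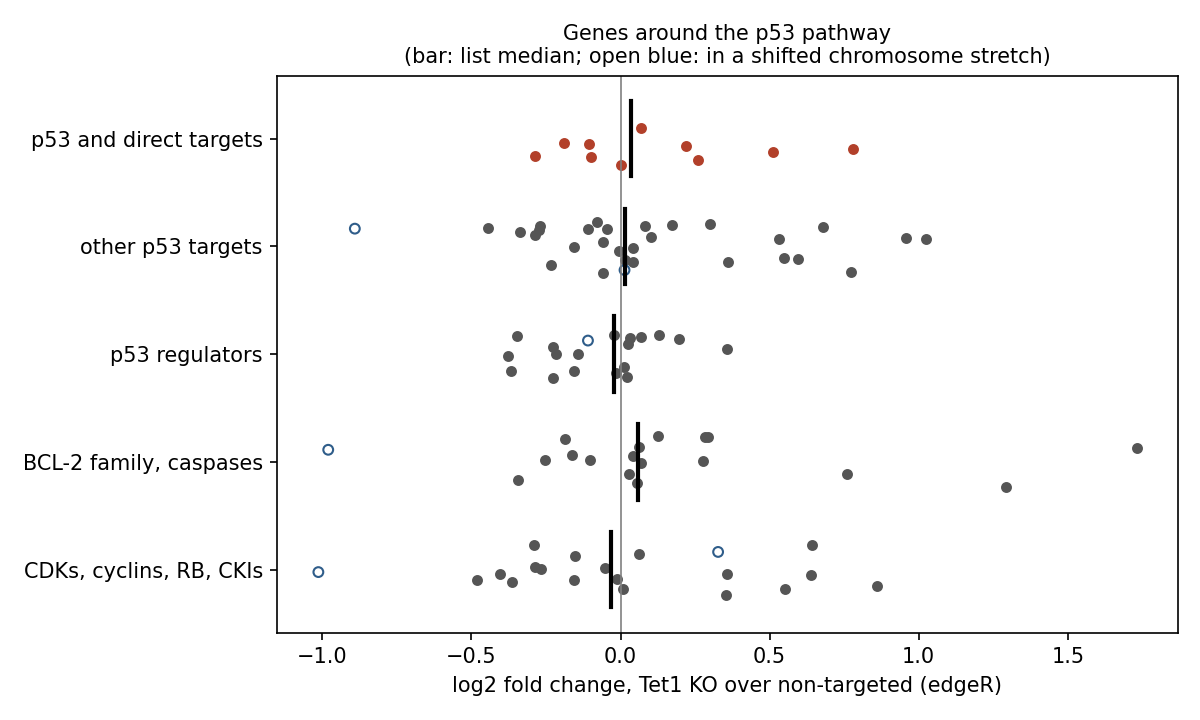
Log2 fold change of every tested gene in the 10-gene group (red) and in 4 lists around it (grey), Tet1 knockout over non-targeted, with the list median as a bar. Open blue points are the 6 genes whose chromosomal neighbours were shifted in a knockout clone, and all medians lie between -0.03 and 0.06.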

How the data were processed

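Polyadenylated RNA of 6 clones, 3 per group, was sequenced from stranded libraries, per the labels' protocols. The authors deposited raw read counts, whole numbers without normalization. The submitters' processing notes name HISAT2 2.1.0, featureCounts 1.5.3, DESeq2 1.18.1 and mm10. Per the file headers, featureCounts 1.6.2 counted whole gene bodies, introns included, on the reverse strand, with the GENCODE M15 annotation of GRCm38.p5. The command sets no option for multi-mapping reads or reads shared by overlapping genes, so the deposited counts leave them out. Levels are not compared between genes, because gene-body counts have no fitting length.

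Genes were kept with filterByExpr (minimum count 10, minimum total 15) and scaled with TMM factors in edgeR 4.0.16 under R 4.3.3. The main test was edgeR's quasi-likelihood fit on group alone, with Benjamini-Hochberg adjustment over all genes. The common biological coefficient of variation was 0.188. Alternatives were DESeq2 1.42.0, limma 3.58.1 voom, RLE scaling, no filter, a replicate block and leaving out each library. The fits were tested on simulated data.

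The 10 members and all lists were chosen with earlier results of these data known. All members are named; from each list, up to 5 DESeq2 calls are named, filled up to 3 genes by the smallest edgeR p, and for Trp53 and Cdkn1a the 3 genes of highest Pearson r. The count ratios and the check of chromosomal neighbours (20 tested genes on each side) were added after seeing the data. Of the lists, Cop1 was matched by gene ID. Sox2, Usp10, Bcl2l2 and Bcl2a1a had no counts and Trp63 had 4 in all, so these genes were not tested. Replicate numbers are not stated to pair clones.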

Additional observations from a re-analysis of the deposited data

How the results depend on the processing

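With edgeR, 0 of the 10 genes and 0 genes in all were called. DESeq2 called 1 member and 1232 genes, limma voom 1 gene, the fit without a filter on low counts 159 genes and the fit with a replicate block 3 genes, the last 3 with no member. Same-numbered clones deviated together with correlations of 0.458, 0.109 and -0.0239, and knockout replicate 3 correlated best with non-targeted replicate 2, so the numbers were not taken as pairs. With each library left out in turn, edgeR called 0 to 4404 genes and 0 to 3 members. All of these calls came without knockout replicate 1, where edgeR called 29.1% of the genes tested, and the 3 members were Cdkn1a, Trp53inp1 and Pmaip1. DESeq2 called 0 to 4 members with a library left out, the 4 without knockout replicate 1, where it called 27.4% of all genes. The member median ranged from -0.05 to 0.15. The list medians ranged from -0.031 to 0.041 for other p53 targets, from -0.062 to -0.015 for regulators and from -0.19 to -0.018 for the p21 partners. Without a filter the regulators had a median of -0.076. The sign of Bbc3 turned in DESeq2 (-0.0050), limma voom (-0.013), without a filter (-0.0093) and with the replicate block (-0.0081), and its values with a library left out ran from -0.11 to 0.14. Those of Ccng1 ran from -0.044 to 0.16. The other 8 members kept their direction in all 11 alternatives. Without the genes in shifted stretches of chromosomes 6 and 14 the list medians were 0.03, -0.02, 0.06 and -0.03 for other targets, regulators, apoptosis genes and p21 partners. The lowest level of any member in any library was 42.0 CPM (Cdkn1a), so all 10 passed the filter on low counts. The cause of these shifts was not tested.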
